A study of Mus musculus with 12 samples.

Results

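The 10 genes described here encode brakes on the mitogen-activated protein kinase (MAPK) pathways: the dual-specificity phosphatases Dusp1, Dusp2, Dusp4, Dusp5, Dusp6, Dusp10 and Dusp16, and the Ras-pathway inhibitors Spry1, Spry2 and Spred1. They were taken by name from a mouse bulk RNA-seq count table, and all 10 were among its 35303 gene symbols and among the 17676 symbols with enough reads to be tested. The 12 libraries came from myeloid-derived suppressor cells (MDSCs), immature myeloid cells that restrain T cells, and fell into 3 groups of 4 biological replicates. MDSC was the control, MDSC-NP-Blk carried blank nanoparticles of the polymer PLGA on the cell surface, and CITED carried the same kind of particle loaded with rapamycin, an inhibitor of the kinase mTOR. According to the methods, the cells were grown for 3 days from bone marrow of female C57BL/6 mice aged 6 to 10 weeks with IL-6 and GM-CSF, purified as CD11b+Gr1+ cells, joined to particles (in the 2 particle groups) through azido groups on the cell surface, and cultured for 24 hours with IL-6 at 40 ng/ml. That last culture was common to all 3 groups, the labels give all libraries the genotype WT, and the methods do not state whether the control cells of the RNA-seq experiment also carried azido groups. CITED differed from MDSC by particle and drug together, MDSC-NP-Blk differed from MDSC by the particle, and CITED differed from MDSC-NP-Blk by the drug load.

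MAPK cascades pass signals from receptors through Ras, Raf and MEK to ERK, or through parallel kinases to JNK and p38. ERK induces some of its own brakes: the phosphatase genes are transcribed after stimulation, and their products remove the phosphates that keep ERK, JNK or p38 active, while Sprouty and Spred proteins act higher up, between the receptor and Raf. In myeloid cells these cascades serve cytokine and toll-like receptors, and the phosphatases are known for limiting cytokine production.

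The labels name the tissue as CNS although the methods describe cultured marrow cells. Of 8 markers of brain cells, 4 (Gfap, Aqp4, Snap25 and Rbfox3) had no read in any library and 6 stayed under 1 CPM (counts scaled to a fixed library total). The other two, Mbp (myelin basic protein) and Tmem119 (a microglial marker), averaged 77.2 to 86.8 and 56.6 to 74.8 CPM in the 3 groups, and the list summed to 126 to 171 CPM per library. The 7 MDSC markers ranged widely in their averages over the 3 groups. S100a8, a calcium-binding protein of myeloid cells, and S100a9 lay at 10658 to 13438 and 11472 to 15652 CPM. Itgam, encoding CD11b, lay at 2108 to 2841 CPM, Ly6c2 at 821 to 1366 and Cebpb at 273 to 776. Ly6g was lower at 160 to 187 CPM, and Ly6c1 was scarce at 0.66 to 1.67 CPM. Totals ran from 20604809 to 37855478 counts per library, and no 2 libraries of a group agreed within sampling noise. The scaling factors (TMM) were 1.12 to 1.15 in MDSC against 0.921 to 0.947 in the other libraries. The rank correlation across 10542 genes between transcript length and a library's deviation from the all-library mean lay between 0.218 and 0.346 for MDSC, between -0.422 and 0.0919 for MDSC-NP-Blk and between -0.341 and -0.187 for CITED, so a length trend moved with the groups. Within MDSC-NP-Blk the libraries also fell into pairs: the chi-square per degree of freedom between counts was 6.15 for replicates 2 and 3 and 6.01 for replicates 1 and 4, against 17.6 to 24.2 across the pairs. The summed level of 15 granulocytic markers was 38074 to 42144 CPM for MDSC, 52213 to 54712 CPM for MDSC-NP-Blk and 38937 to 43789 CPM for CITED, and that of 10 monocytic markers was 7407 to 8259, 9732 to 10895 and 11151 to 11926 CPM. The B cell markers summed to 10.98 to 15.0, 7.12 to 10.2 and 2.90 to 4.07 CPM and 8 dendritic cell markers to 470 to 506, 332 to 351 and 412 to 450 CPM. The 8 mast cell and basophil markers summed to 461 to 499, 523 to 579 and 294 to 314 CPM, and 6 T cell markers to 2.57 CPM at most in any library. The part of these shifts in the values below was not tested, and in bulk RNA a change in the cells present and a change in RNA per cell cannot be told apart.

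Against control MDSCs, 7 of the 10 genes rose in CITED and none fell at an adjusted p below 0.05 (edgeR quasi-likelihood test, n = 4 per group), a share to be read against 22.2% of all tested genes that rose by the same test. Dusp1, Dusp5, Dusp6 and Spry1 also at least doubled (a log2 fold change of 1 or more, here termed called), where 3.28% of all tested genes were called higher. The same 7 genes, Dusp1, Dusp5, Dusp6, Dusp16, Spry1, Spry2 and Spred1, rose in MDSC-NP-Blk, against a background of 19.9%, and 1 of them, Dusp1, was called, against 1.88%. Of the 10, 8 were well expressed (a mean normalized count of at least 50). Among 10555 such genes 35.6% rose in CITED and 32.1% in MDSC-NP-Blk, and 10.7% and 4.24% were called in either direction. These 2 comparisons share the control libraries. Dusp2, Dusp4 and Dusp10 did not pass the test in either. In CITED against MDSC-NP-Blk, 34.9% of well-expressed genes passed in either direction. Of all tested genes, 10.5% were higher and 11.4% lower there. Dusp5 and Dusp6 rose by 1.20-fold each in that comparison, Dusp10 was lower by 1.66-fold, and none of the 10 was called. For Dusp10 this was the largest of its 3 differences, the log2 fold change against MDSC being -0.36 for CITED and 0.37 for MDSC-NP-Blk.

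**Figure D1:**
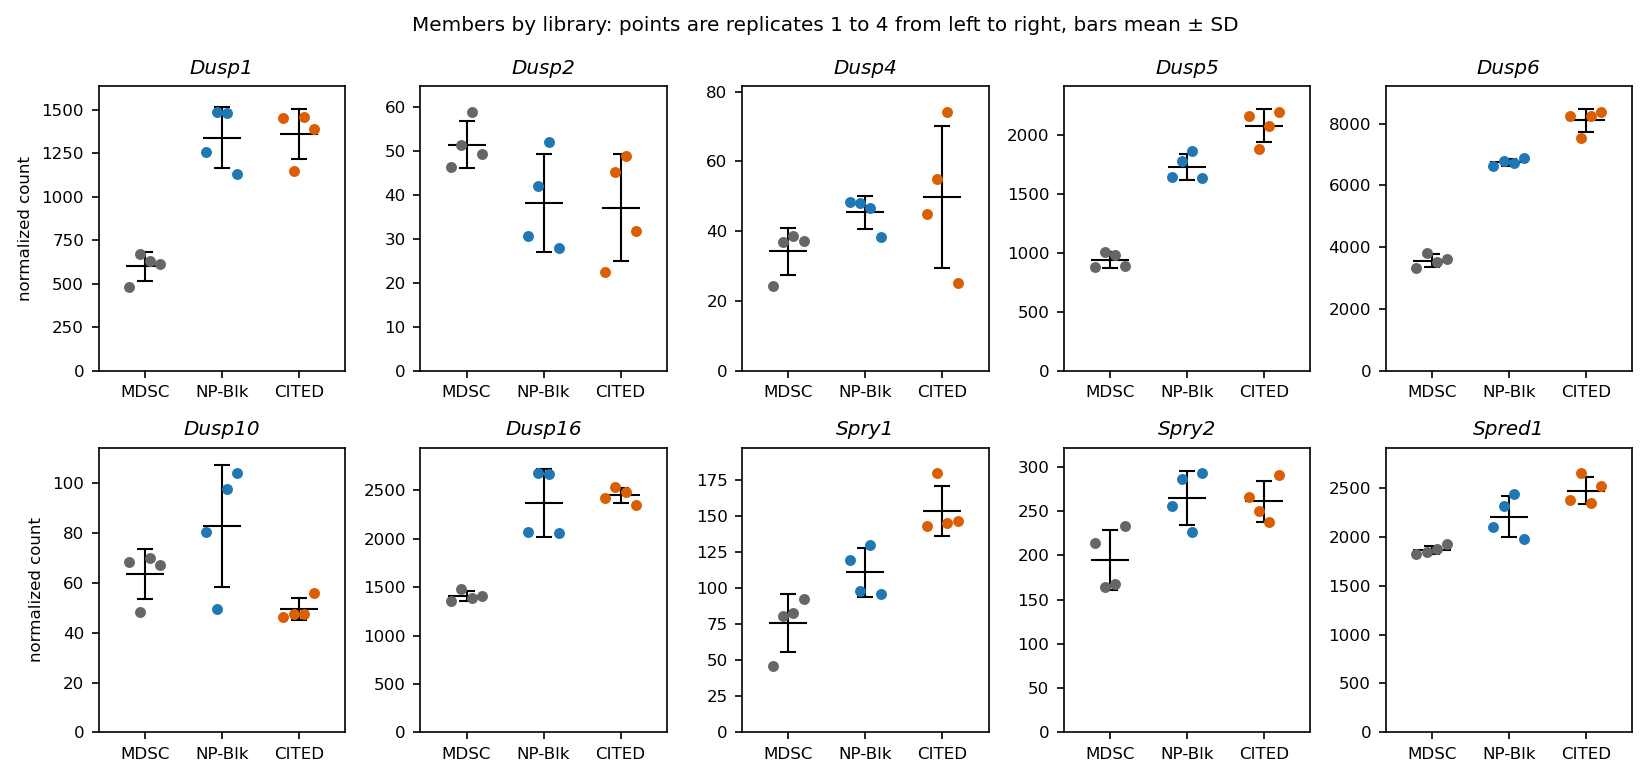
Normalized read counts (vertical axes, linear from 0) of the 10 genes in the 4 libraries of MDSC, MDSC-NP-Blk and CITED, with mean ± SD as black bars. Dusp1, Dusp5, Dusp6, Dusp16, Spry1 and Spred1 sat above every MDSC library in all 8 particle-bearing libraries, and the Dusp2 and Dusp4 panels reach only 58.8 and 74.2 counts.

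Among the nuclear, inducible phosphatases, Dusp1 and Dusp5 rose and Dusp2 and Dusp4 did not pass the test. Dusp1 encodes MKP-1, an immediate early phosphatase of p38, JNK and ERK. Its normalized read counts were 482, 673, 630 and 614 in MDSC replicates 1 to 4, 1258, 1486, 1478 and 1129 in MDSC-NP-Blk, followed by 1451, 1149, 1457 and 1386 in CITED. Every particle-bearing library lay above every MDSC library, and the 2 particle groups overlapped. Against MDSC the log2 fold change was 1.18 for CITED (SE 0.0950, adjusted p = 9.1e-13) and 1.16 for MDSC-NP-Blk (SE 0.0947, adjusted p = 2.8e-12). Between the particle groups the difference was 0.02 with a 95% interval of -0.16 to 0.21 on the log2 scale.

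Dusp5, a nuclear phosphatase specific for ERK, measured 882, 1006, 981 and 883 normalized counts under control conditions. It rose to 1640, 1775, 1860 and 1635 in the MDSC-NP-Blk libraries, and further to 2153, 1877, 2068 and 2191 in those of CITED. The 3 groups did not overlap one another. The log2 fold change was 0.88 (SE 0.0674, adjusted p = 6.0e-13) for the blank particle and 1.14 (SE 0.0674, adjusted p = 3.3e-16) for CITED, and CITED exceeded MDSC-NP-Blk by 0.26 (SE 0.0658, adjusted p = 0.0029). Dusp2 and Dusp4, which encode nuclear phosphatases of ERK and its relatives, were scarce, with raw counts of 18 to 70 per library. Dusp2 averaged 51.4 ± 5.35 (SD, n = 4) normalized counts for MDSC, 38.1 ± 11.1 for MDSC-NP-Blk and 37.0 ± 12.1 for CITED, and Dusp4 averaged 34.3 ± 6.67, 45.4 ± 4.68 and 49.8 ± 20.4. Neither passed the test in any comparison, and the intervals were wide, from -1.08 to 0.14 for Dusp2 and from -0.09 to 1.17 for Dusp4 on the log2 scale in CITED against MDSC. Without CITED replicate 4, Dusp4 passed in that comparison (0.77, adjusted p = 0.041).

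Promoter sequences from RefSeq (GRCm38.p6, 250 bases before to 50 after each start) were held for 9 of the 10 genes, Dusp4 being the missing entry. Stretches upstream of the start are shown for Dusp1, whose particle groups differed by 0.02 on the log2 scale, and for Dusp5 and Dusp6, which rose further in CITED. Capitals mark a match to a searched motif on either strand: the cAMP response element (CRE) TGACGTCA or its core TGACG, the E-box CACGTG, or a CArG box, the site bound by serum response factor.
Dusp1, chr17:26508578-26508678, minus strand: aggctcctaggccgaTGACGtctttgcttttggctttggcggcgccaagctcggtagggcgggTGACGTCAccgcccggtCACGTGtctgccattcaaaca
Dusp5, chr19:53529048-53529109, plus strand: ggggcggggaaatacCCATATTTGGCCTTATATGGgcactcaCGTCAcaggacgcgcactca
Dusp6, chr10:99263171-99263230, plus strand: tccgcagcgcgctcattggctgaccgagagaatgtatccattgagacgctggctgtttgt
The Dusp1 window held a full CRE, found in 1.79% of 32851 promoters of this length and in none of the other 8. Dusp5 alone held CArG boxes, a pair lying side by side from 82 to 63 bases before the start, against 1.63% of all promoters. The CRE core, which every full CRE contains, lay in 4 of the 9 (Dusp1, Dusp2, Dusp5 and Dusp16) against 20.8% of all promoters, and the E-box in Dusp1 and Dusp2 against 7.15%. An early growth response (EGR) motif, GCGGGGGCG, lay in Dusp2 alone, against 2.91%. The second EGR form GCGTGGGCG (0.612% of all promoters), the AP-1 site TGACTCA (5.2%), the ETS core CCGGAAG (8.86%) and the NF-kB motif (4.51%) lay in none of the 9. Dusp6, Dusp10, Spry1, Spry2 and Spred1 held no searched motif in this window. These matches describe the letters of the windows and nothing about factor binding.

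Dusp6 encodes MKP-3, the cytoplasmic phosphatase that holds and dephosphorylates ERK, and was the most abundant of the 10. Its normalized counts were 3332, 3819, 3519 and 3605 in MDSC, 6615, 6788, 6714 and 6881 in MDSC-NP-Blk, followed by 8239, 7540, 8260 and 8378 in CITED. No 2 groups overlapped, and the 4 blank-particle libraries spread by an SD of only 112. The log2 fold change was 0.92 (SE 0.0502, adjusted p = 1.5e-16) for MDSC-NP-Blk and 1.18 (SE 0.0504, adjusted p = 5.8e-20) for CITED against MDSC. CITED exceeded MDSC-NP-Blk by 0.26 (SE 0.0495, adjusted p = 9.5e-05).

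The phosphatases that act mainly on JNK and p38 gave different patterns. Dusp16, encoding MKP-7, a phosphatase of JNK and p38, had 1359, 1483, 1390 and 1408 normalized counts in MDSC, 2065, 2673, 2664 and 2053 in MDSC-NP-Blk, followed by 2420, 2531, 2485 and 2348 in CITED. All 8 particle-bearing libraries lay above MDSC, and in MDSC-NP-Blk replicates 2 and 3 lay above CITED while replicates 1 and 4 lay below it. The log2 fold change was 0.75 (SE 0.0718, adjusted p = 1.3e-10) and 0.79 (SE 0.0719, adjusted p = 1.8e-11), under the doubling that a call required, and 0.05 between the particle groups (95% interval -0.10 to 0.19). Dusp10, encoding MKP-5, measured 68.2, 48.4, 69.8 and 67.3 normalized counts in MDSC, 80.1, 49.5, 97.7 and 104 in MDSC-NP-Blk, followed by 46.3, 47.6, 47.6 and 56.0 in CITED. It was the only one of the 10 that was lower in CITED than in MDSC-NP-Blk by the test (log2 fold change -0.73, SE 0.244, adjusted p = 0.028). The groups overlapped because MDSC-NP-Blk replicate 2 fell within the CITED range, and the adjusted p rose to between 0.056 and 0.115 without any 1 of 5 libraries (MDSC-NP-Blk replicate 3 or 4, or CITED replicate 1, 2 or 3).

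Among the Ras-pathway inhibitors, Spry1 changed most. Spry1, a Sprouty protein that restrains receptor signalling to Ras, had 46.3, 80.7, 82.7 and 92.4 normalized counts in MDSC, 120, 97.7, 130 and 95.6 in MDSC-NP-Blk, followed by 143, 179, 145 and 147 in CITED. The 3 groups did not overlap, although MDSC replicate 1 was far below its own group. The log2 fold change was 1.03 (SE 0.189, adjusted p = 2.3e-05) for CITED against MDSC and 0.56 (SE 0.192, adjusted p = 0.019) for MDSC-NP-Blk against MDSC. Between the particle groups it was 0.47 (SE 0.185), which did not pass (adjusted p = 0.066); the result kept its side of the threshold in 18 of 22 alternatives and passed with only the 8 libraries compared, with the replicate number as a block, without MDSC replicate 1 and without MDSC-NP-Blk replicate 3 (adjusted p = 0.035 to 0.039). The call in CITED rested on 2 libraries, since the log2 fold change was 0.85 without MDSC replicate 1 and 0.95 without CITED replicate 2, and the rise in MDSC-NP-Blk did not pass without MDSC replicate 1 (adjusted p = 0.12) or MDSC-NP-Blk replicate 3 (adjusted p = 0.069).

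Spry2, the closest relative of Spry1 in this set, had 214, 164, 168 and 233 normalized counts in MDSC, 256, 286, 227 and 293 in MDSC-NP-Blk, followed by 266, 250, 238 and 291 in CITED. MDSC-NP-Blk overlapped MDSC, and CITED lay just above it. The log2 fold change was 0.45 (SE 0.125, adjusted p = 0.0041) in MDSC-NP-Blk and 0.43 (SE 0.126, adjusted p = 0.0055) in CITED, with -0.02 between the particle groups (95% interval -0.28 to 0.23). Spred1, a Sprouty-related protein that brings the Ras inhibitor neurofibromin to the membrane, had 1821, 1848, 1870 and 1921 normalized counts in MDSC, 2094, 2314, 2438 and 1976 in MDSC-NP-Blk, followed by 2371, 2647, 2344 and 2516 in CITED. Its rise was 0.41 (SE 0.0621, adjusted p = 1.2e-06) in CITED, and 0.24 (SE 0.0621, adjusted p = 0.0017) in MDSC-NP-Blk, where the direction flipped to -0.02 when libraries were scaled by size alone. CITED was above MDSC-NP-Blk by 0.16 (SE 0.0619), which did not pass (adjusted p = 0.059), and the groups overlapped. This result lay close to the threshold and kept its side of it in only 14 of 22 alternatives. It passed by DESeq2, by a stricter filter on low counts, with the replicate block, with a correction for transcript length, without MDSC-NP-Blk replicate 2, replicate 3 or both, and without CITED replicate 3, with adjusted p from 0.00073 to 0.049 and log2 fold changes of 0.16 to 0.28.

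**Figure D2:**
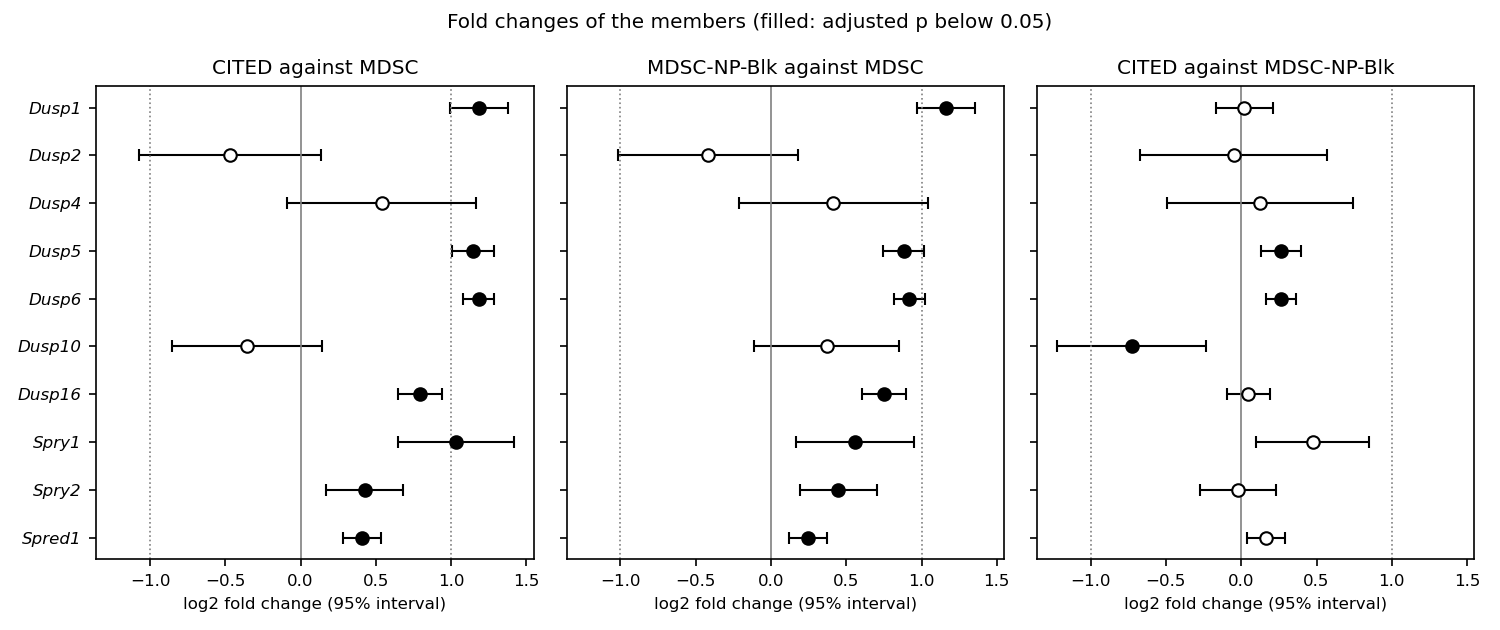
Log2 fold changes (horizontal axis) with 95% intervals for the 10 genes in the 3 comparisons; filled points have an adjusted p below 0.05 and dotted lines mark the doubling or halving needed for a call. In CITED against MDSC the 4 called genes lie at 1.03 to 1.18, and in CITED against MDSC-NP-Blk all points but Dusp10 lie between -0.05 and 0.47; the Spred1 point of MDSC-NP-Blk against MDSC flips to -0.02 with scaling by library size alone.

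The choice of scaling set how large these rises were. Under library size alone, without TMM, the median of 10555 well-expressed genes moved from 0.02 to -0.26 for CITED and from 0.00250 to -0.26 for MDSC-NP-Blk, each set against MDSC on the log2 scale. Dusp1, Dusp5, Dusp6, Dusp16 and Spry1 still rose in CITED (log2 fold changes of 0.91, 0.87, 0.91, 0.52 and 0.76), but none reached a call. Dusp2 and Dusp10 then passed as lower (-0.74, adjusted p = 0.040, and -0.63, adjusted p = 0.032), and Spry2 and Spred1 no longer passed (adjusted p = 0.34 and 0.092). In MDSC-NP-Blk the rises of Dusp1, Dusp5, Dusp6 and Dusp16 remained past the test under library size alone, at 0.90, 0.62, 0.66 and 0.49, and those of Spry1 and Spry2 did not (adjusted p = 0.23 and 0.25). A change of scaling moves every gene of a comparison by about the same amount. Values set against the shifted median must therefore stand close to those under TMM, and this does not decide between the scalings. A correction for the length trend kept all 7 rises past the test in both comparisons with MDSC, with Spred1 at 0.64 and 0.40 and Spry1 just under a call in CITED (0.99), and Spred1 then also passed in CITED against MDSC-NP-Blk (0.24, adjusted p = 0.00073).

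As a list, the 10 genes had a median log2 fold change against MDSC of 0.67 for CITED and 0.50 for MDSC-NP-Blk, beside -0.05 and -0.03 over all tested genes, and 0.09 beside 0 in CITED against MDSC-NP-Blk. The libraries of CITED lay entirely above those of MDSC for 7 of the 10, where 21.2% of all tested genes did, and those of MDSC-NP-Blk lay above MDSC for 6, where 18.1% did. CITED lay entirely above MDSC-NP-Blk for 3 (Dusp5, Dusp6 and Spry1), where 10.4% did. For the comparison in which none was called, 5 of the 10 had an unadjusted p under 0.05 in edgeR (Dusp5, Dusp6, Dusp10, Spry1 and Spred1). By that p they ranked from 1307 (Dusp6) to 4172 (Spry1) among 17676 tested genes, so at least 4172 genes lay under 0.05. The full number is larger, because Map3k8, for example, ranked behind Spry1 and was also under that limit in this comparison. There edgeR called 0 of the 10, beside 2.65% of all tested genes in either direction, and DESeq2 also called 0 of the 10.

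The pairs of MDSC-NP-Blk libraries bore on several of the genes. Dusp1, Dusp2, Dusp5, Dusp16 and Spred1 were higher in both of replicates 2 and 3 than in either of replicates 1 and 4, by ratios of 1.11 for Dusp5 to 1.61 for Dusp2, as were 29.7% of 10555 well-expressed genes. Dusp6 was level, with a ratio of 1.00. Without replicates 2 and 3, CITED exceeded MDSC-NP-Blk also for Dusp16 (0.25, adjusted p = 0.0029) and Spred1 (0.28, adjusted p = 0.00083), and Dusp1 lost its call in MDSC-NP-Blk, so that 0 of the 10 were called. Against MDSC, Spry1 and Spred1 then no longer passed in MDSC-NP-Blk (adjusted p = 0.086 and 0.19). Without replicates 1 and 4, Dusp16 was -0.13 (adjusted p = 0.15) and Dusp10 no longer passed (-0.55, adjusted p = 0.20) in CITED against MDSC-NP-Blk. Dusp5 and Dusp6 passed that comparison under all 22 alternatives that tested for any change, with log2 fold changes of 0.19 to 0.34 and 0.25 to 0.30. The test for a change beyond a log2 fold change of 1 (glmTreat) left 0 of the 10 there.

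**Figure D3:**
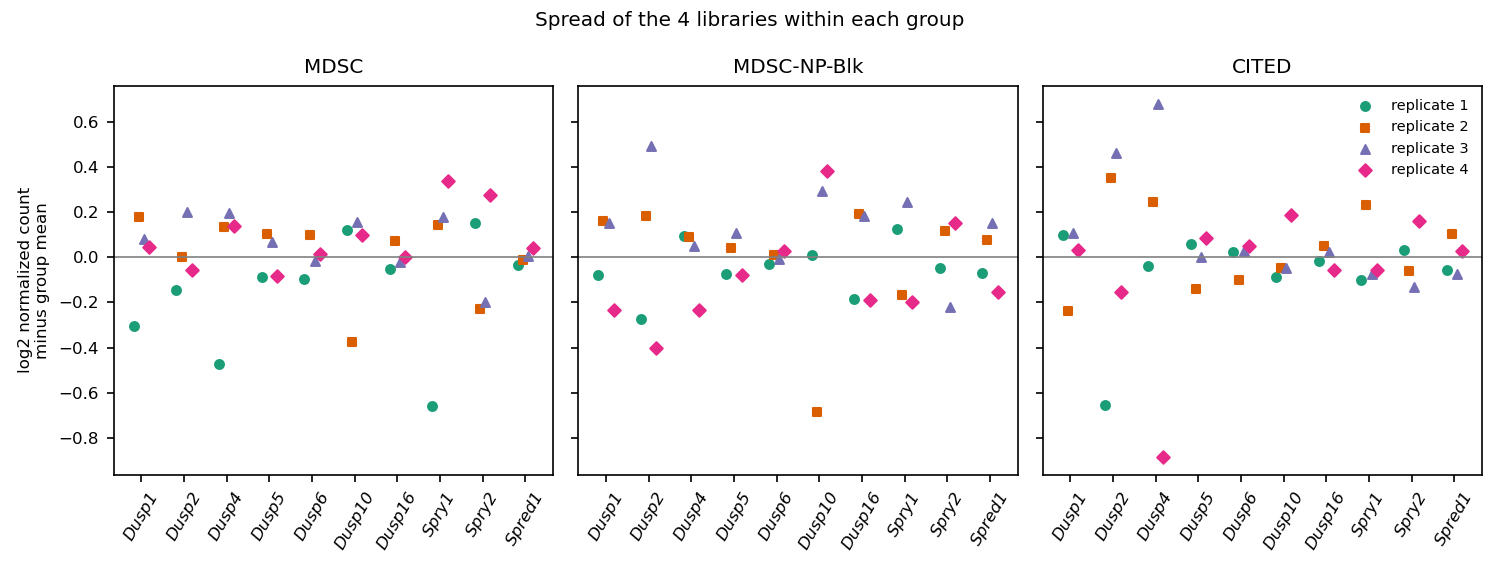
Each library's log2 normalized count minus its group's mean (vertical axis) for the 10 genes in the 3 groups, with 1 marker shape per replicate. In MDSC-NP-Blk, Dusp16 splits into replicates 2 and 3 above and 1 and 4 below the mean, Dusp6 stays near 0, and Dusp2 and Dusp10 spread most.

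Levels were compared between genes only per transcript length, on the TPM scale, which has no TMM. Dusp6 ranked first in every group, at 121 ± 5.99 TPM for MDSC, 176 ± 6.45 TPM for MDSC-NP-Blk and 212 ± 10.04 TPM for CITED (SD, n = 4). Dusp5 and Dusp1 followed, at 36.3 and 29.0 TPM in MDSC and 61.8 and 50.6 in CITED. The range of Dusp1 overlapped that of Spred1 in MDSC and that of Dusp5 in MDSC-NP-Blk. For CITED the first 7 places (Dusp6, Dusp5, Dusp1, Dusp16, Spred1, Spry2, Spry1) were each separated from the next by library ranges that did not overlap. Dusp2, Dusp4 and Dusp10 held the lowest places in both particle groups, between 1.04 and 1.74 TPM on average, with overlapping ranges. The 10 genes summed to 255 ± 13.5 TPM for MDSC, 349 ± 24.8 TPM for MDSC-NP-Blk and 402 ± 16.5 TPM for CITED. Of that sum Dusp6 made up 47.5%, 50.4% and 52.7%, and Spred1 11.1%, 7.34% and 7.20%. In MDSC, MDSC-NP-Blk and CITED, Spred1 averaged 28.3, 25.7 and 28.9 TPM, and Spry2 5.78, 6.03 and 5.97 TPM. The rises of Spred1 and Spry2 in TMM-normalized counts were therefore absent or slight on the TPM scale.

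**Figure D4:**
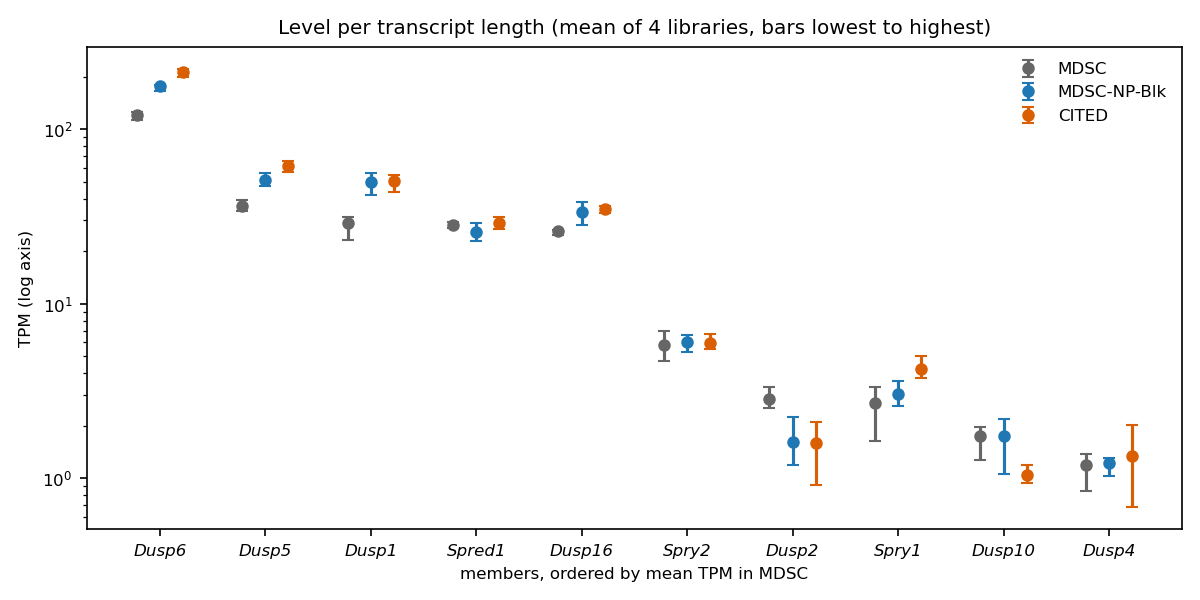
Mean TPM (log axis) of the 10 genes in each group of 4 libraries, with bars from the lowest to the highest library, ordered by level in MDSC. Dusp6 stands alone at 121 to 212 TPM on average, 4 genes lie between 25.7 and 61.8 TPM, and 5 lie at 6.03 TPM or below.

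The gene whose pattern over the 12 libraries was most like each of the 10 was sought among 10554 others, as the smallest root mean square difference of centred log2 CPM. Cd37, a leukocyte tetraspanin, was nearest to Dusp6 (0.0336), followed by Gpr55, a lipid receptor (0.0477). Tgfb1, encoding the cytokine TGF-beta1, was nearest to Dusp5 (0.0608), and Dusp6 itself was second (0.0670). Tlr2, a toll-like receptor, and Ccn3 were nearest to Dusp16 (0.0547 and 0.0650), Gcnt1 and Myo1f to Spred1 (0.0570 and 0.0593), and Nrg1 and Trim13 to Dusp1 (0.128 and 0.133). The scarcer genes had looser neighbours, Gm49368 and Bri3bp for Spry2 (0.127 and 0.134), Nr1d2 and Slc12a4 for Spry1 (0.184 and 0.206) and Col4a2 and Klf11 for Dusp10 (0.221 and 0.241). Dusp2 and Dusp4 were below the level of 50 normalized counts set for this measure.

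The rest of the pathway was read from lists whose genes were mostly well expressed. Their counts stand beside the well-expressed genes as a whole, of which 35.6% rose and 32.3% fell in CITED against MDSC, 32.1% rose and 28.3% fell in MDSC-NP-Blk against MDSC, and 34.9% passed in either direction between the particle groups. Over all tested genes 22.2% fell in CITED and 18.6% in MDSC-NP-Blk, and 6.7% and 2.86% were called lower. Of well-expressed genes, 10.7% were called in either direction in CITED against MDSC, 4.24% in MDSC-NP-Blk against MDSC and 2.70% between the particle groups. A list of 28 genes held outputs of ERK signalling, with transcription factors such as Elk1, Elk3 and Srf, and immediate early genes. Of the 28, 19 rose and 4 fell in CITED against MDSC. For that comparison 14 were called higher (3.28% of all tested genes) and 1 lower, with a median log2 fold change of 1.00. Of the list, 25 were well expressed. Egr1 and Egr2, zinc finger factors induced within minutes of ERK activation, led with 2.54 (SE 0.0842, adjusted p = 1.0e-22) and 1.99 (SE 0.0706, adjusted p = 5.7e-22). Egr1 averaged 625 ± 25.8 normalized counts for MDSC, 3298 ± 550 for MDSC-NP-Blk and 3630 ± 281 for CITED. Ccnd1, encoding cyclin D1, a driver of entry into the cell cycle that ERK can induce, moved the other way, from 494 ± 31.5 to 55.0 ± 10.1 and 69.3 ± 15.3 (log2 fold change -3.16, adjusted p = 2.8e-18, and -2.82, adjusted p = 8.6e-18). In MDSC-NP-Blk, 20 of the 28 rose and 3 fell, with 13 called higher (1.88% of all tested genes), 1 called lower and a median of 0.89, and Epha4, a receptor tyrosine kinase, followed Egr1 at 1.82 (SE 0.454, adjusted p = 0.0013) from low counts. Between the particle groups 9 rose and 3 fell, and Epha2, another such receptor, was the 1 call (1.03, SE 0.217, adjusted p = 0.00044).

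The kinases and adaptors upstream showed mixed shifts. Of 20 genes of the ERK cascade, all well expressed, 11 rose and 7 fell in CITED, 9 rose and 3 fell in MDSC-NP-Blk, and 6 rose and 2 fell between them. The 12 past the test in MDSC-NP-Blk are about the share of well-expressed genes that passed in either direction (60.4%), and the 18 in CITED stand beside 67.9%. Gab1, a docking protein between receptors and Ras, was the only call of these (1.08 in CITED, SE 0.121, adjusted p = 2.3e-09). Of 19 genes of the JNK and p38 cascades, 8 rose and 4 fell, 8 rose and 1 fell, and 1 rose and 5 fell in the same 3 comparisons, with none called. The 12 past the test in CITED are close to that 67.9% and the 9 in MDSC-NP-Blk lie under 60.4%. The median of this list was 0.04, 0.08 and -0.02.

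Other brakes of the pathway gave mixed counts. Of 16 tested other dual-specificity phosphatase, Sprouty and Spred genes, 6 rose and 0 fell in CITED, 5 rose and 3 fell in MDSC-NP-Blk, and 1 rose between them. Against MDSC, 22.2% of all tested genes rose in CITED and 19.9% in MDSC-NP-Blk, and 35.6% and 32.1% of well-expressed genes did. Only 11 of the listed genes were well expressed, and every gene that rose was among them. The only call was Dusp18, a phosphatase outside the MAPK-binding subfamily, at -1.01 in MDSC-NP-Blk (SE 0.335, adjusted p = 0.015). Of 18 other negative regulators of Ras and MAPK, 4 rose and 10 fell in CITED, 4 rose and 5 fell in MDSC-NP-Blk, and 2 rose and 3 fell between them. The 5 that fell in MDSC-NP-Blk are about the 28.3% of well-expressed genes that did, while the 10 that fell in CITED stand beside 32.3%. Ptprr, a tyrosine phosphatase that binds ERK and p38, was the 1 call, at -1.01 in CITED (SE 0.270, adjusted p = 0.0020). The medians of these lists in CITED against MDSC were 0.11 and -0.28, beside 0.67 for the 10 genes.

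**Figure D5:**
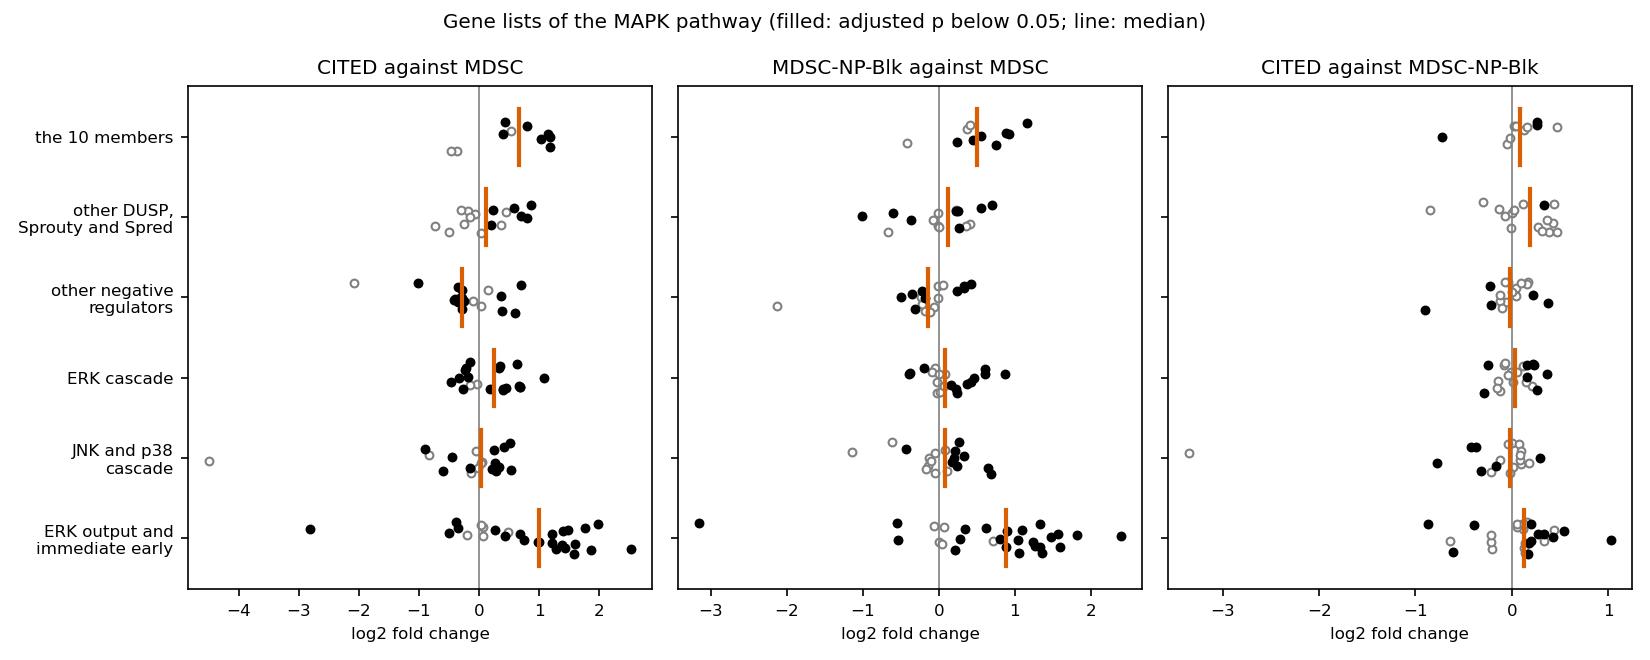
Log2 fold change (horizontal axis) of each tested gene of 6 lists in the 3 comparisons; filled points have an adjusted p below 0.05 and the orange line is the list's median. The medians of the 10 genes (0.67 and 0.50) and of the ERK output list (1.00 and 0.89) lie right of 0 against MDSC, and the other 4 lists centre between -0.28 and 0.25.

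The gene models behind the names (GRCm39, GENCODE M39) are all protein coding. Dusp1 spans chr17:26724564-26781102 on the minus strand, Dusp5 chr19:53517532-53530862 and Dusp6 chr10:99086564-99103361 on the plus strand, Dusp10 chr1:183745499-183807842 on the plus strand, Dusp16 chr6:134692431-134784241 on the minus strand and Spry1 chr3:37693897-37698755 on the plus strand. Dusp2 spans chr2:127177957-127180296, Dusp4 chr8:35274442-35287048 and Spred1 chr2:116951524-117018277 on the plus strand, and Spry2 chr14:106128766-106136446 on the minus strand. Their transcripts share at most 2.00% of words of 31 bases with other genes. Exons of all but Dusp4 and Spred1 overlap an annotated gene on the other strand, such as Ergic1 for Dusp1, and because the strand setting of the counting is not given, reads of the partners cannot be told apart there.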

How the data were processed

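RNA of 12 libraries was measured by paired-end poly(A) sequencing. The authors quantified the reads with Salmon 1.4.0 on GENCODE transcripts with GRCm39 decoys, summed them per gene with tximport in R 4.3.2 and deposited whole-number counts per gene symbol. The GENCODE release and strand setting are not given in the sources used here. The 1 blank symbol held 0 counts. Here every symbol whose counts summed to 2 or more was fitted in 1 model of all 12 libraries with edgeR 4.0.16 (TMM, glmQLFit and glmQLFTest; R 4.3.3), with Benjamini-Hochberg adjustment over 17676 symbols. Genes were called when the adjusted p was under 0.05 and expression had at least doubled or halved (1 on the log2 scale), the thresholds of the study's methods. Normalized counts were divided by TMM-scaled library size and put on the mean library's scale, and TPM used the length of the canonical GENCODE M39 transcript. Well-expressed genes had a mean normalized count of at least 50. Depth of 20604809 to 37855478 counts gave Dusp2 and Dusp4 18 to 70 raw counts per library. DESeq2 1.42.0 served as an alternative, beside other scaling, filters, a length correction, a replicate block, a fold threshold test (glmTreat) and leaving out libraries. Leaving out pairs of MDSC-NP-Blk libraries was added after seeing the data. The fits were tested on simulated data. The 10 genes and all lists were chosen with earlier results of these data known. Named genes are the 10, the 2 called genes of each list with the largest change in each direction, and the 2 genes nearest in pattern to each of the 10. Groups are those of the labels, which call the samples biological replicates; figures were drawn with matplotlib.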

Additional observations from a re-analysis of the deposited data

Results flagged for a closer look

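Of 30 sets of 4 libraries (10 genes in 3 groups), 6 had a library whose gap to its nearest neighbour, divided by the whole range, exceeded 0.829 (Dixon's 95% limit for 4 values), where chance gives about 1 in 20. Spry1 in CITED replicate 2 was highest of its group at 179 normalized counts, with the next at 147, and the call of Spry1 against MDSC was lost without that library. Dusp6 in CITED replicate 2 was lowest at 7540, with the next at 8239, still above all MDSC-NP-Blk libraries. The other such values belong to scarce genes. Dusp4 was lowest in MDSC replicate 1 at 24.3 (next 37.0) and in MDSC-NP-Blk replicate 4 at 38.5 (next 46.8). Dusp10 was lowest in MDSC replicate 2 at 48.4 (next 67.3) and highest in CITED replicate 4 at 56.0 (next 47.6).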

How the results depend on the processing

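Over 30 fold changes (10 genes, 3 comparisons) and 660 values under alternatives, 609 kept direction and side of the threshold, 14 fell below it, 16 rose past it and 21 changed sign. Of the sign changes, 20 were in CITED against MDSC-NP-Blk, in genes that had not passed there. Scaling by library size alone left 0 called genes of the 10 for CITED and likewise 0 for MDSC-NP-Blk, each set against MDSC, 4 with an adjusted p below 0.05 in MDSC-NP-Blk, and turned Spred1 there to -0.0189. Testing against a log2 fold change of 1 (glmTreat) left 1 (Dusp6) and 0 of the 10, and 722, 143 and 59 of all genes against 1765, 838 and 469, since this test asks for a change beyond 1. The length correction turned Dusp1 in CITED against MDSC-NP-Blk to -0.00105. Leaving out MDSC-NP-Blk replicates 2 and 3 gave 0 called genes in MDSC-NP-Blk against MDSC and 5 past the test in CITED against MDSC-NP-Blk, with Dusp2 at 0.34, and leaving out replicates 1 and 4 gave Dusp1 -0.12, Dusp16 -0.13 and Spry2 0.0220. Beyond fewer samples, the cause of these moves was not tested.

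Leaving out 1 library at a time, the called genes of the 10 numbered 3 to 4, 1 to 1 and 0 to 0 for CITED and for MDSC-NP-Blk, each set against MDSC, and for CITED set against MDSC-NP-Blk, and those past the test 7 to 8, 6 to 7 and 2 to 4. All genes called numbered 1631 to 1772, 722 to 892 and 417 to 474. In CITED against MDSC-NP-Blk the fold changes that changed sign ran from -0.0486 to 0.0955 for Dusp1, -0.21 to 0.13 for Dusp2, -0.14 to 0.35 for Dusp4, -0.0131 to 0.112 for Dusp16 and -0.0895 to 0.0285 for Spry2.

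Whether the replicate numbers pair the samples could not be decided from 4 pairs per comparison. The correlation of deviations between libraries of the same number exceeded 0.1 in 0, 0 and 1 of 4 pairs. In the same order, 2, 0 and 4 of 8 libraries correlated best with their own number. For CITED against MDSC-NP-Blk the correlation averaged 0.051 between libraries of the same number and -0.017 between the others. With the replicate block, 4, 1 and 0 of the 10 were called, and 5 passed the test in CITED against MDSC-NP-Blk, adding Spry1 (adjusted p = 0.035) and Spred1 (adjusted p = 0.036). Dusp2, Dusp4 and Dusp10 had 18 to 94 raw counts per library and intervals that span 0 in CITED against MDSC. In CITED the spread between libraries exceeded counting noise for Dusp2 and Dusp4 (CV 32.7% and 41.1% against 17.4% and 15.2%).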
